A study of Mus musculus with 6 samples.

Results

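The collagen genes of the mouse heart were examined in *Trdn-as* knockout (KO) and wild-type (WT) hearts. The members were chosen by name, as all protein coding genes whose symbol is Col, a number, a and a number, apart from 1 gene that is not reported here. This gave 39 collagen genes among 21776 genes in all, of which 14970 are protein coding. By the type of structure that their chains build, 10 are fibrillar, 8 belong to basement membranes and 21 were grouped as other. The labels give 3 KO hearts and 3 WT hearts of *Mus musculus*, and each heart was read as 1 strand-specific total RNA library. *Trdn-as*, a non-coding RNA of cardiomyocytes, lies within *Trdn* on the opposite strand, and *Trdn* encodes triadin, a protein of the calcium release complex. In the KO mice a polyadenylation signal had been placed into exon 1 of *Trdn-as* in embryonic stem cells with Cas9, and the mice were crossed back to C57BL/6. The allele is present in all cells of the animal, although the series describes the hearts as deficient in cardiomyocytes. The WT hearts carry no such insertion and no treatment is given for either genotype. Age and sex of the sequenced animals are not in the labels, and the tissue is labelled heart without a chamber. The study counts its RNA-seq samples as hearts, 3 of each genotype, and nothing is said of litters or of the days on which they were prepared.

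Collagens are secreted proteins of the extracellular matrix whose chains wind around each other into a triple helix. The helix needs glycine, the smallest residue, at regular short intervals, so long stretches of each chain are a glycine followed by a pair of other residues, repeated again and again. Fibrillar collagens assemble into the tensile fibres between the muscle cells and are made mainly by fibroblasts, while type IV collagens form the sheet-like networks that surround cardiomyocytes and capillaries. In the failing heart collagen is known to accumulate as fibrosis.

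The repeat can be read directly from the genes. Shown here is 1 whole coding exon of 54 bases from genes on which the results turn. These are *Col3a1* and *Col1a1*, the highest fibrillar genes per kb of merged annotated exons, and *Col4a1*, the highest type IV gene. The others are the 4 genes with the lowest p-values in the comparison of KO with WT. The sequences are 5′ to 3′ on the coding strand of GRCm38 with exons from GENCODE M21. Capitals mark the glycine codons that start a triplet of the repeat, 6 in each exon. In *Col1a1* a further glycine codon, ggt, follows the last of these and is left in lower case.
*Col1a1*, exon 8 of 51, plus strand, chr11:94939904-94939957: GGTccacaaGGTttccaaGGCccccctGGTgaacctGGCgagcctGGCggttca
*Col3a1*, exon 6 of 51, plus strand, chr1:45325360-45325413: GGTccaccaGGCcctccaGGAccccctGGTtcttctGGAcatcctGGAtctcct
*Col5a3*, exon 15 of 67, minus strand, chr9:20801068-20801121: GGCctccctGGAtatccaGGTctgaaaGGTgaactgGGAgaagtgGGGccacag
*Col4a1*, exon 7 of 52, minus strand, chr8:11245211-11245264: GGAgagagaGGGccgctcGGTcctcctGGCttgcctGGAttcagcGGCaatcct
*Col4a3*, exon 7 of 52, plus strand, chr1:82651254-82651307: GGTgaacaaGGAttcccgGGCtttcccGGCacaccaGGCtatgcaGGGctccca
*Col14a1*, exon 39 of 48, plus strand, chr15:55472927-55472980: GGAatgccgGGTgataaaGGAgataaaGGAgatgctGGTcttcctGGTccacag
*Col12a1*, exon 57 of 66, minus strand, chr9:79612916-79612969: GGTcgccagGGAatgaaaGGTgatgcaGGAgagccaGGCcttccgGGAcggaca

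Exons of this length were found in every fibrillar and basement membrane gene, in different numbers. The 10 fibrillar genes had 21 to 33 coding exons of exactly 54 bases, with a median of 30, and the 8 basement membrane genes had 1 to 3. The 21 other genes had 0 to 28, with a median of 3, and the highest number was 28 of 63 coding exons in *Col22a1*. The longest unbroken run of triplets that start with a glycine codon was 216 to 344 triplets in the fibrillar genes (median 338) and 30 to 66 in the basement membrane genes (median 41). In *Col4a1* the repeat was broken into 18 runs of 10 or more triplets, the longest of 40, whereas in *Col3a1* 2 runs held it, the longest of 344. *Col14a1* and *Col12a1*, which encode fibril-associated collagens, each had 4 runs with 78 triplets in all and a longest run of 32. These 78 triplets made up 13.0% of the codons of *Col14a1* and 7.6% of those of *Col12a1*. In the other class as a whole, the longest run was 23 to 113 triplets.

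The type IV genes lie in pairs that are transcribed away from each other. The annotated starts of *Col4a1* and *Col4a2* on chromosome 8 overlap by 22 bases, those of *Col4a4* and *Col4a3* on chromosome 1 are 126 bases apart, and those of *Col4a6* and *Col4a5* on chromosome X are 1308 bases apart. The stretch between *Col4a4* and *Col4a3* is shown because both genes are part of the comparison below. It is chr1:82586850-82586975 on the minus strand of GRCm38.p6 in RefSeq, that is, in the direction of *Col4a4*, and capitals mark its 5 CG dinucleotides.
*Col4a4* to *Col4a3*: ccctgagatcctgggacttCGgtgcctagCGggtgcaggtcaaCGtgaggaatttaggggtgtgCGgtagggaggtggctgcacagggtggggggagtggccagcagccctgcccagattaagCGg

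RefSeq promoter windows, from 250 bases before to 50 bases after a start, were at hand for 31 of the 39 collagen genes, with 33 windows in all. Without a window were *Col1a1*, *Col4a3*, *Col14a1*, *Col12a1*, *Col5a2*, *Col9a3*, *Col22a1* and *Col26a1*. The windows of *Col4a1* and *Col4a2* overlap, as do both windows of *Col6a2*, so a motif there can be counted in both. The motif GGGCGG or its reverse complement was found in 22 of these 33 windows (66.7%) and in 35.7% of all 32851 windows. CCAAT on either strand was found in 11 windows (33.3%, against 37.4% of all), and TATAAA on either strand in 4 (12.1%, against 13.6% of all). None of the 3 motifs holds another. Neither CCAAT nor GGGCGG occurs in the stretch between *Col4a4* and *Col4a3*. A match of letters is a description of the sequence and not a binding site.

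The gene taken as the target followed the labels. The deposited values, which are read counts divided by a size factor per library and rounded, summed to between 3.13 and 3.25 M per library, a likeness that the scaling itself brings about. They are called normalised reads in the following. *Trdn-as* was taken to be AC157017.2, the gene within *Trdn* on the minus strand with the highest summed value. It had 1, 0 and 1 normalised reads in the KO hearts and 690, 773 and 688 in the WT hearts, here and below in the order of replicates 1 to 3. *Trdn* had 2489, 2381 and 2551 in KO and 1541, 1541 and 1516 in WT. KO and WT were compared with limma on log2(value + 1) for the 13753 genes with a mean of at least 10 normalised reads, and p-values were adjusted over all of them. At an adjusted p under 0.05, 4 genes were called, which is 0.0291% of those tested. The listed markers of cardiomyocytes, endothelial cells, fibroblasts and mural cells were present in each library, with summed levels of at least 3121 normalised reads per list.

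Of the 39 collagen genes, 28 passed the filter on low values, namely 8 fibrillar, 8 basement membrane and 12 other genes. Collagen transcripts together made up 9708, 11708 and 11823 normalised reads in the KO hearts and 10775, 10605 and 10030 in the WT hearts. The KO hearts included the lowest and both highest sums, so the groups overlapped. The mean was 11080 ± 1189 (SD, n = 3) in KO and 10470 ± 390 (SD, n = 3) in WT. As a share of all normalised reads, this was 0.308%, 0.374% and 0.377% in KO and 0.331%, 0.333% and 0.320% in WT. In bulk RNA of a whole heart, fewer cells of a type and less RNA per cell cannot be told apart.

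**Figure D1:**
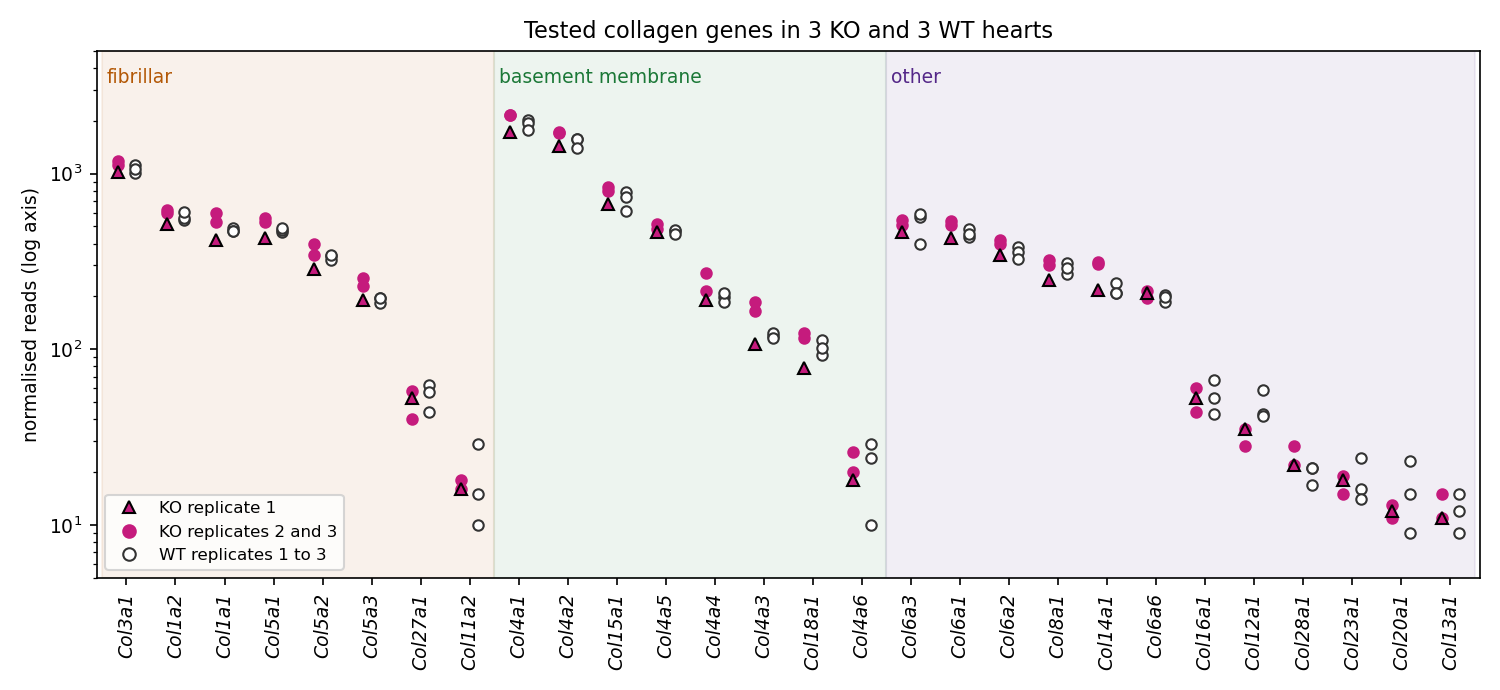
Normalised reads (log axis) of the 28 tested collagen genes by class, with KO replicate 1 as triangles, KO replicates 2 and 3 as filled circles and the 3 WT hearts as open circles. *Col4a1* is the highest gene with 1715 to 2161 normalised reads, and KO replicate 1 is the lowest of the KO hearts in many of the abundant genes.

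Levels were compared between genes only per length, as normalised reads per kb of merged annotated exons (mean of the 6 hearts). The highest were *Col4a1* with 262 and *Col4a2* with 237 per kb, which encode the chains of the type IV network found in nearly all basement membranes. Their ranges over the 6 hearts overlapped each other, while that of *Col4a2* did not overlap the next gene. *Col15a1*, a collagen of the basement membrane zone, had 117 per kb, *Col3a1* 110 and *Col6a1* 109, with overlapping ranges. *Col1a1*, the main chain of type I fibres, followed with 75.7, *Col4a5* with 71.1, *Col5a1* with 57.9, *Col1a2* with 46.1, *Col6a2* with 44.5, *Col6a3* with 42.7 and *Col8a1* with 37.0. The range of *Col1a1* did not overlap that of *Col6a1* above it, and that of *Col5a1* overlapped neither neighbour. *Col14a1* had 35.4, *Col5a2* 35.3, *Col5a3* 30.6, *Col6a6* 22.0, *Col4a4* 20.0, *Col18a1* 14.9, *Col4a3* 13.7 and *Col16a1* 7.90 per kb. The other tested genes lay between 2.52 for *Col11a2* and 4.45 for *Col28a1*. In 7 of the 27 pairs of neighbours in this order the ranges over the hearts did not overlap, and the highest gene exceeded the lowest 104-fold. Basement membrane genes held 52.0% of the summed level of all 39 collagen genes per kb, fibrillar genes 25.6% and the others 22.5%. Duplicates had been removed before counting, and the effect of this on the highest levels and on these shares was not tested.

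The order depends on the length used. Per kb of the longest coding transcript, chosen after seeing the data, *Col3a1* had 195 and ranked above *Col15a1* with 143. On that scale *Col1a2* had 107 and *Col1a1* 83.8, so the ratio of *Col1a1* to *Col1a2* was 0.782, against 1.64 with merged exons. *Col4a1* and *Col4a2* were first and second on both scales, at 296 and 243 per kb of transcript. The class shares on this scale were 45.8% for basement membrane, 30.4% for fibrillar and 23.7% for other genes. In 36 of the 39 genes no exonic base is shared with another gene on the same strand, and in *Col3a1* 1.44% of the exonic bases are.

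**Figure D2:**
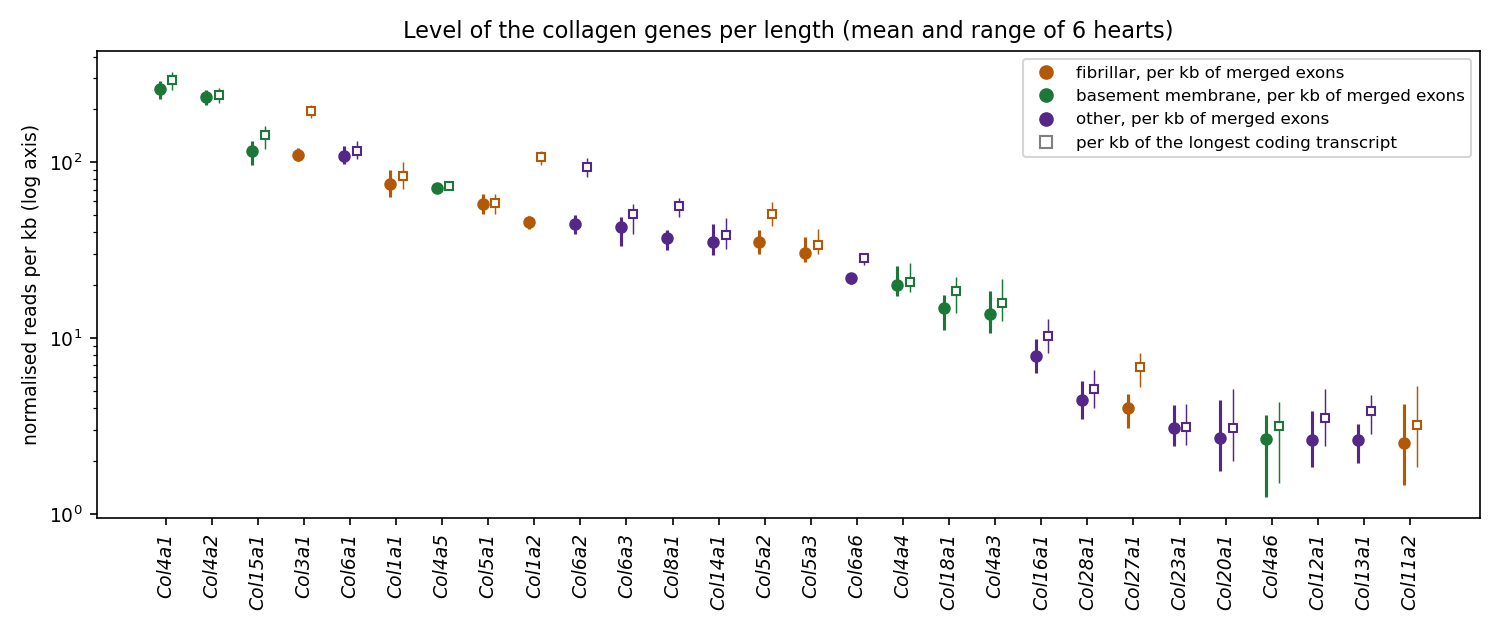
Level of the 28 tested collagen genes in normalised reads per kb (log axis), as the mean and the range of the 6 hearts, per kb of merged exons (filled) and of the longest coding transcript (open). *Col4a1* and *Col4a2* lead on both scales, and *Col1a2* moves from 46.1 to 107 with the shorter length.

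The question of the comparison was whether collagen transcripts differ between hearts with and without *Trdn-as*. Over the 6 libraries, 0 of the 28 tested collagen genes passed the adjusted test in either direction, against 0.0291% of all genes tested, and the smallest adjusted p of a collagen gene was 0.770 (limma, Benjamini-Hochberg). At an unadjusted p under 0.05 there were 4 of 28, with 3 higher and 1 lower in KO, while 5.74% of all tested genes reached it. *Col14a1*, *Col4a3* and *Col5a3* were higher and *Col12a1* was lower. Groups that did not overlap were seen in 2 of the 28, against 9.07% of all tested genes. The fold change was above 0 in 22 genes and below 0 in 6, and its median was 0.07 on the log2 scale, against 0.00 over all tested genes. Without KO replicate 3 the fold change was above 0 in 17 genes and below 0 in 11. Without KO replicate 1 these numbers were 23 and 5. The genes share libraries and cells of origin and are not independent of each other. The median standard error of the 28 fold changes was 0.10, and 0.12 over all tested genes. A p-value that misses the threshold does not show that levels are alike, so intervals are given with the values.

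**Figure D3:**
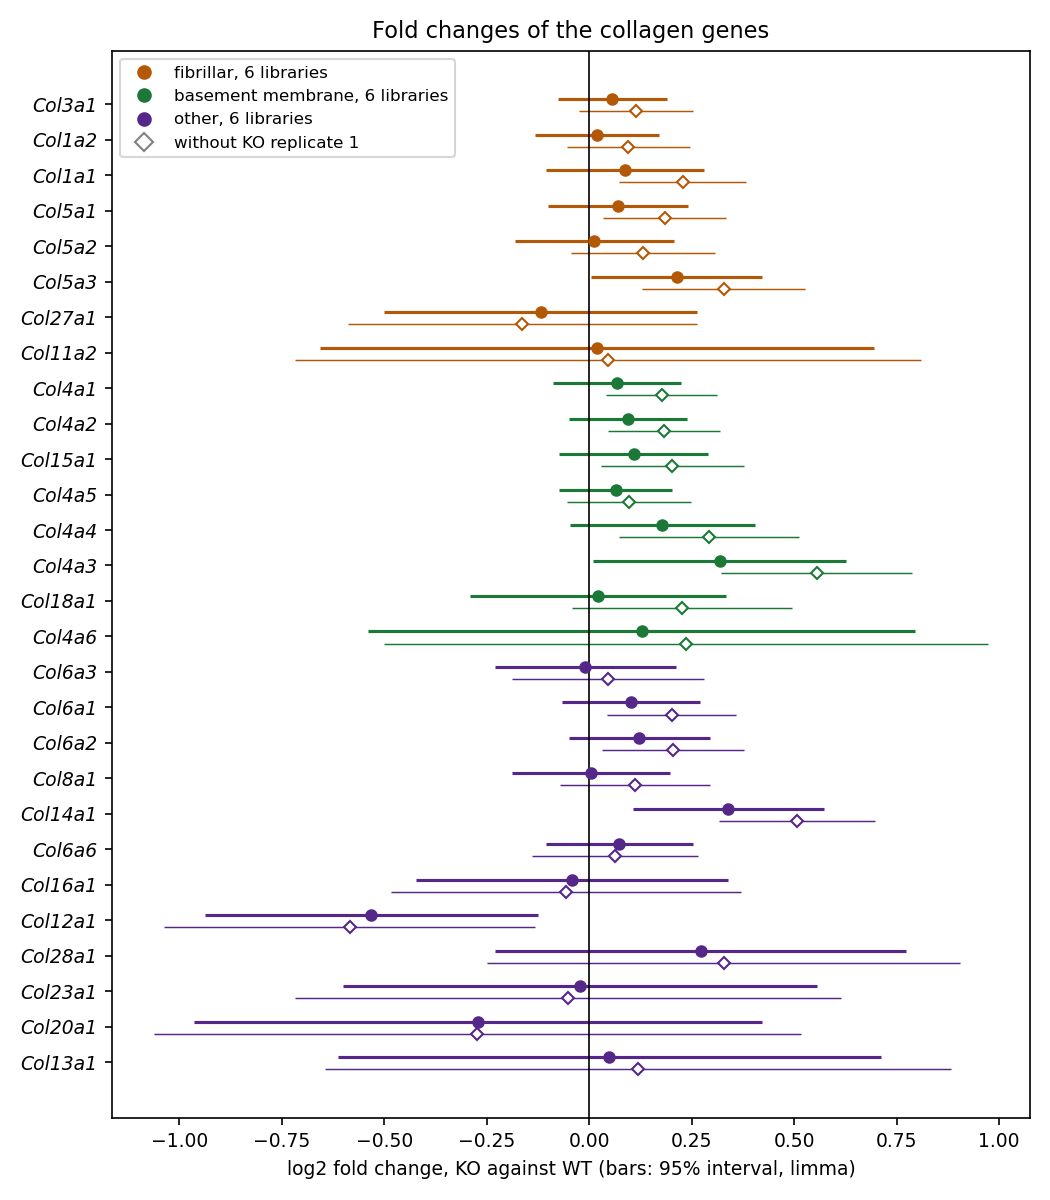
Log2 fold change of KO against WT for the 28 tested collagen genes with the 95% interval from limma, over all 6 libraries (filled) and without KO replicate 1 (open). The intervals of *Col14a1*, *Col4a3* and *Col5a3* lie above 0 and that of *Col12a1* below 0 with all libraries.

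Among the fibrillar genes, KO and WT overlapped in the main chains of heart fibres. *Col3a1*, whose chains form type III fibres, had 1018, 1118 and 1179 normalised reads in KO and 1119, 1001 and 1065 in WT. *Col1a1* had 418, 593 and 532 in KO and 493, 473 and 472 in WT, and *Col1a2*, its partner chain in type I collagen, had 517, 617 and 596 in KO and 543, 558 and 603 in WT. In *Col1a1* and *Col1a2*, KO replicate 1 was below all WT hearts and KO replicate 2 above them. The log2 fold changes were 0.06 for *Col3a1* (95% interval -0.08 to 0.19), 0.09 for *Col1a1* (-0.11 to 0.28) and 0.02 for *Col1a2* (-0.13 to 0.17). A change of *Col1a1* between 0.929-fold and 1.21-fold thus lies within the interval.

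Type V collagen is built into type I fibres and limits their width. *Col5a1* had 429, 559 and 527 normalised reads in KO and 467, 479 and 487 in WT, and *Col5a2* had 287, 343 and 395 in KO and 341, 321 and 346 in WT. The third chain, *Col5a3*, had 190, 255 and 229 in KO and 196, 184 and 197 in WT. KO replicates 2 and 3 were above every WT heart in *Col5a3* and KO replicate 1 lay within the WT range. The log2 fold change of *Col5a3* was 0.21 ± 0.10 (SE), or 1.16-fold, with an unadjusted p of 0.0453 and an adjusted p of 0.851 (limma), and it was 0.12 without KO replicate 2 and 0.33 without KO replicate 1. Those of *Col5a1* and *Col5a2* were 0.07 (95% interval -0.10 to 0.24) and 0.01 (-0.18 to 0.21).

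*Col27a1* and *Col11a2*, fibrillar genes best known from cartilage, were low. *Col27a1* had 53, 40 and 58 normalised reads in KO and 44, 63 and 57 in WT, with a log2 fold change of -0.12 (95% interval -0.50 to 0.26). *Col11a2* had 16, 16 and 18 in KO and 15, 10 and 29 in WT, and its interval ran from -0.66 to 0.69. The WT hearts enclosed all KO hearts in *Col11a2*. *Col11a1* with 2 to 7 normalised reads and *Col24a1* with 0 to 2 were under the filter. Over the 8 tested fibrillar genes the median log2 fold change was 0.04, with 7 above 0 and 1 below. It was 0.00088 without KO replicate 3 and 0.12 without KO replicate 1.

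All 8 basement membrane genes were tested, and all 8 had a fold change above 0, with a median of 0.10 on the log2 scale, while over all tested genes 6965 were above 0 and 6788 below. The median was 0.038 without KO replicate 2 and 0.22 without KO replicate 1. For 1 of the 8 the unadjusted p was under 0.05, against 5.74% of all tested genes, and for 0 the adjusted p, against 0.0291%. *Col4a1* had 1715, 2145 and 2161 normalised reads in KO and 2007, 1945 and 1770 in WT, and *Col4a2* had 1430, 1719 and 1712 in KO and 1567, 1567 and 1406 in WT. KO replicates 2 and 3 were above every WT heart in both genes, and KO replicate 1 was lowest in *Col4a1*. The log2 fold change was 0.07 (95% interval -0.09 to 0.22) for *Col4a1* and 0.10 (-0.05 to 0.24) for *Col4a2*. That of *Col4a1* was 0.010 without KO replicate 3 and 0.18 without KO replicate 1.

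*Col4a3*, *Col4a4* and *Col4a5* encode the chains of a second type IV network, known from the kidney glomerulus and mutated in Alport syndrome. *Col4a3* had 107, 166 and 186 normalised reads in KO and 119, 123 and 116 in WT. Its KO values lay on both sides of a narrow WT range. The log2 fold change was 0.32 ± 0.15 (SE), with an interval of 0.01 to 0.63, an unadjusted p of 0.0434 and an adjusted p of 0.851 (limma). It was 0.55 without KO replicate 1 and 0.16 without KO replicate 3. *Col4a4*, its neighbour across the 126 bases shown above, had 191, 216 and 272 in KO and 199, 185 and 210 in WT, with a log2 fold change of 0.18 (-0.05 to 0.40). KO replicates 2 and 3 were again the highest hearts. *Col4a5* had 466, 514 and 485 in KO and 470, 475 and 455 in WT, a fold change of 0.06 (-0.07 to 0.20). *Col4a6*, which joins *Col4a5* in smooth muscle basement membranes, had 18, 26 and 20 in KO and 29, 10 and 24 in WT, and its interval of -0.54 to 0.80 was wide.

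*Col15a1* and *Col18a1* encode related collagens of the basement membrane zone, and the end of the *Col18a1* product is the source of endostatin. *Col15a1* had 671, 799 and 837 normalised reads in KO and 790, 736 and 616 in WT, a log2 fold change of 0.11 (95% interval -0.07 to 0.29), or 0.0058 without WT replicate 3 and 0.20 without KO replicate 1. *Col18a1* had 78, 124 and 116 in KO and 113, 93 and 102 in WT, a fold change of 0.02 (-0.29 to 0.33). KO replicate 1 was the lowest heart in *Col18a1*, and KO replicates 2 and 3 were the highest in both genes.

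Among the 12 tested genes of the other class, the largest fold changes were those of a fibril-associated pair, in opposite directions. *Col14a1*, whose product coats collagen fibrils, had 218, 306 and 312 normalised reads in KO and 208, 237 and 208 in WT. KO replicates 2 and 3 were above all WT hearts, and KO replicate 1 lay between them. The log2 fold change was 0.34 ± 0.11 (SE), with an interval of 0.11 to 0.57 and 1.26-fold in linear terms, and the p was 0.00655 before and 0.770 after adjustment (limma). *Col12a1*, the closest relative in the family, had 35, 35 and 28 in KO and 59, 43 and 42 in WT, so that every KO heart was below every WT heart. The fitted difference was -0.53 ± 0.19 (SE) on the log2 scale, the interval ran from -0.94 to -0.13, and the test gave an unadjusted p of 0.0130 and an adjusted p of 0.807 (limma). The same 4 glycine runs and 78 triplets in both genes, given above, stood beside levels of 35.4 per kb for *Col14a1* and 2.65 per kb for *Col12a1*.

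The type VI genes encode the chains of beaded microfilaments around cells. *Col6a1* had 428, 540 and 512 normalised reads in KO and 435, 485 and 453 in WT, and *Col6a2* had 344, 398 and 418 in KO and 380, 358 and 326 in WT. *Col6a3* had 468, 508 and 543 in KO and 563, 587 and 398 in WT, where the WT hearts held both the highest and the lowest values. The log2 fold changes were 0.10 (95% interval -0.07 to 0.27) for *Col6a1*, 0.12 (-0.05 to 0.29) for *Col6a2* and -0.01 (-0.23 to 0.21) for *Col6a3*. *Col6a6*, whose chain can stand in for that of *Col6a3*, had 210, 215 and 196 in KO and 186, 205 and 199 in WT, a fold change of 0.07 (-0.11 to 0.25). *Col6a5* was under the filter with 0 to 7.

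*Col8a1*, a short-chain collagen of vessel walls, had 249, 302 and 322 normalised reads in KO and 267, 308 and 292 in WT, a log2 fold change of 0.00 (95% interval -0.19 to 0.20). *Col16a1* had 53, 44 and 60 in KO and 43, 67 and 53 in WT. *Col28a1*, related to type VI collagen, had 22, 28 and 22 in KO and 21, 21 and 17 in WT. The groups did not overlap in *Col28a1*, with a log2 fold change of 0.27 and an interval from -0.23 to 0.77. *Col23a1* and *Col13a1*, collagens that span the cell membrane, had 18, 15 and 19 and 11, 15 and 11 in KO against 16, 14 and 24 and 15, 12 and 9 in WT. *Col20a1*, a fibril-associated gene, had 12, 13 and 11 in KO and 23, 9 and 15 in WT. In *Col16a1*, *Col23a1*, *Col20a1* and *Col13a1* the groups overlapped, and their log2 fold changes were -0.04, -0.02, -0.27 and 0.05, each with an interval across 0.

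Of the other class, 9 genes were under the filter. *Col25a1*, a membrane collagen, had 9, 9 and 12 normalised reads in KO and 5, 3 and 8 in WT, so the groups did not overlap. In a fit without the filter its log2 fold change was 0.86 (95% interval 0.03 to 1.70), with an unadjusted p of 0.0431 and an adjusted p of 0.915 (limma). *Col8a2* had 2, 8 and 7 in KO and 14, 7 and 6 in WT. *Col7a1*, the gene of the anchoring fibrils of skin, had 3 to 7, *Col22a1* 2 to 6, *Col9a3* 2 to 5, *Col26a1* 0 to 6, *Col17a1* 0 to 3 and *Col9a2* 0 to 2 normalised reads per heart. In the fit without the filter, 5 of all 39 collagen genes had an unadjusted p under 0.05, against 5.29% of all genes, and *Col25a1* was the 1 gene among them that the filter had left out. Standard errors of the genes under the filter were 0.40 to 0.65 in that fit, so that only large differences could be seen.

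The KO hearts were not alike among themselves. KO replicate 1 was the single lowest heart in 9 of the 28 tested collagen genes and the highest in 0, while over all tested genes it was the single lowest in 14% and the highest in 14.9%. WT replicates 2 and 3 were each the lowest in 7, against 13.3% and 16.3% of all tested genes, and KO replicates 2 and 3 in 1 each. KO replicate 2 was the highest in 10 and KO replicate 3 in 9, against 17.3% and 15.1% of all tested genes. The median deviation of the 28 genes from their means over the 6 hearts was -0.13, 0.11 and 0.12 on the log2 scale in KO replicates 1 to 3 and between -0.04 and -0.02 in the WT hearts. The basement membrane sum had an SD of 621 normalised reads in KO and 308 in WT (n = 3 each). Its values were 4676, 5709 and 5789 in KO and 5294, 5134 and 4699 in WT. The fibrillar sum was 2931, 3544 and 3543 in KO and 3224, 3093 and 3262 in WT, again with KO replicate 1 lowest and the other KO hearts highest. The sum of the other genes was 2101, 2455 and 2491 in KO and 2257, 2378 and 2069 in WT.

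Each library was also left out in turn. Without KO replicate 1, 12 of the 28 collagen genes had an unadjusted p under 0.05, 11 of them higher in KO, against 8.24% of all tested genes. The 11 were *Col1a1*, *Col5a1* and *Col5a3* of the fibrillar class, *Col4a1*, *Col4a2*, *Col4a3*, *Col4a4* and *Col15a1* of the basement membrane class, and *Col6a1*, *Col6a2* and *Col14a1*. The adjusted test called 2 of the 28, against 0.232% of all tested genes, namely *Col14a1* with a log2 fold change of 0.51 and an adjusted p of 0.0153, and *Col4a3* with 0.55 and 0.0349 (limma). Fold changes of genes that kept their sign moved too: over the 6 libraries left out in turn, the log2 value was 0.0085 to 0.11 in *Col3a1*, 0.043 to 0.18 in *Col4a2*, 0.039 to 0.29 in *Col4a4* and 0.027 to 0.098 in *Col4a5*. In the other class it was 0.034 to 0.20 in *Col6a1*, 0.063 to 0.20 in *Col6a2*, 0.034 to 0.11 in *Col6a6*, 0.25 to 0.51 in *Col14a1*, 0.16 to 0.33 in *Col28a1* and -0.62 to -0.38 in *Col12a1*. Groups did not overlap in 15 of the 28, against 22.6% of all tested genes. The median log2 fold change was then 0.15, and in the 5 settings without another library it lay between 0.03 and 0.08, with 0 collagen genes called after adjustment. These values rest on 2 KO hearts, and the labels give no reason to leave out KO replicate 1.

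Marker sums of the cell types that make collagen were set beside these values. The endothelial sum over 6 genes was 4077, 4659 and 4704 normalised reads in KO and 4571, 4425 and 4122 in WT, which is the same order of the 6 hearts as in the basement membrane sum. All 6 endothelial markers had a fold change above 0 and 0 had an unadjusted p under 0.05, where over all tested genes 6965 were above 0, 6788 below, and 5.74% had such a p. Divided by the endothelial sum, the basement membrane sum was 1.15, 1.23 and 1.23 in KO and 1.16, 1.16 and 1.14 in WT, so KO replicates 2 and 3 were still highest. The fibroblast sum over 7 genes was 3121, 3273 and 3314 in KO and 3672, 3410 and 3154 in WT, with 2 markers above 0 and 5 below. Per fibroblast sum, the fibrillar sum was 0.939, 1.08 and 1.07 in KO and 0.878, 0.907 and 1.03 in WT. These ratios were chosen after seeing the data, and the part of the cell types in the collagen values was not tested.

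**Figure D4:**
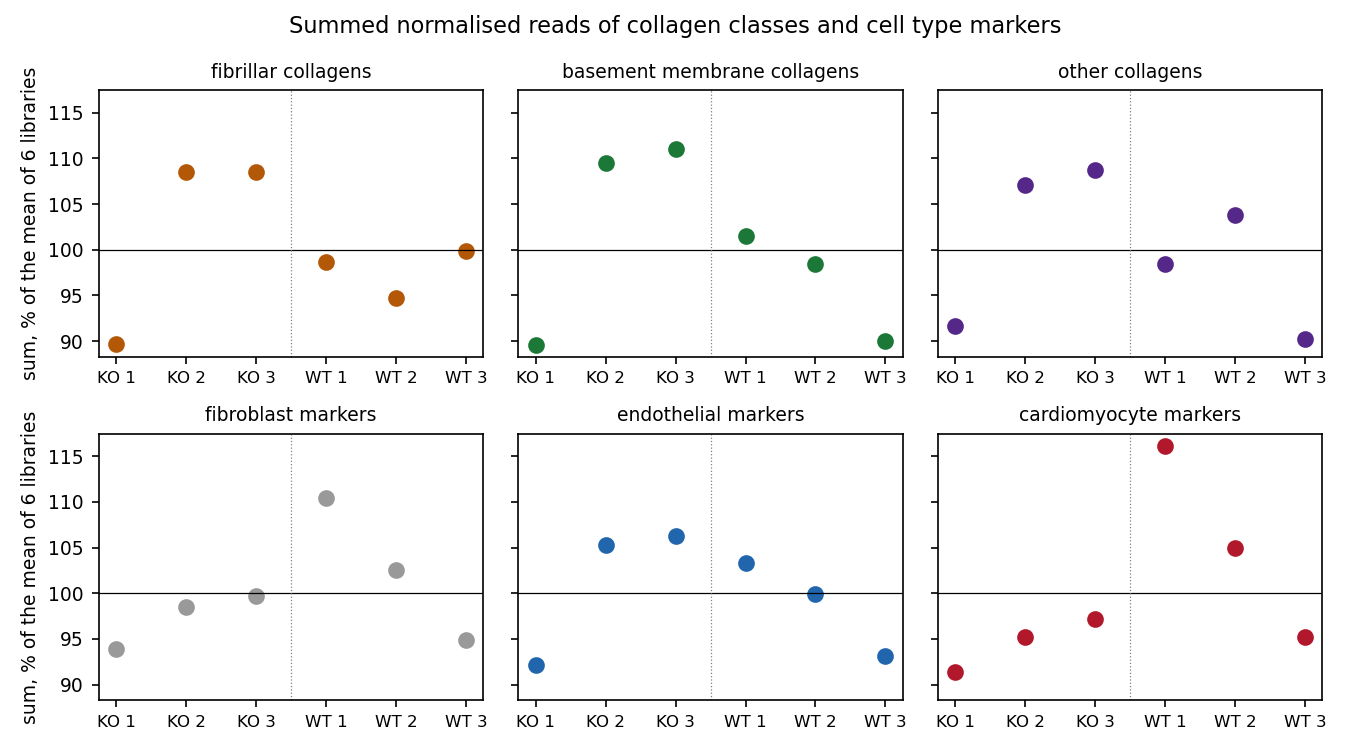
Summed normalised reads of the 3 collagen classes and of fibroblast, endothelial and cardiomyocyte markers in each heart, in percent of the mean over the 6 libraries. KO replicate 1 is the lowest heart in the fibrillar and basement membrane sums and in all 3 marker sums, and WT replicate 1 is the highest in the fibroblast and cardiomyocyte markers.

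The sum of the smooth muscle and pericyte list was 5429 to 5806 in KO and 5367 to 6245 in WT. Its largest term was *Abcc9* with 2380, 2411 and 2434 normalised reads in KO and 2725, 2577 and 2270 in WT. How much of *Abcc9* comes from mural cells was not tested. The cardiomyocyte sum was 20078 to 21339 in KO and 20899 to 25493 in WT. All 6 cardiomyocyte markers had a fold change below 0, 5 of them with an unadjusted p under 0.05 (5.74% of all tested genes) and 0 after adjustment. Their log2 fold changes lay between -0.16 and -0.14, and WT replicate 1 was the highest heart in each. Duplicates of single-end reads had been removed before counting, and the effect of this on such abundant genes was not tested. Sums of the valve and cartilage list were 68, 121 and 98 in KO and 97, 91 and 105 in WT, with *Acan* at 0 to 5 and *Chad* at 0 to 6. The epicardial sum was 26, 62 and 49 in KO and 35, 42 and 54 in WT. Both were lowest in KO replicate 1, as were the fibrillar collagens. Adipocyte sums were 8 to 37 in KO and 11 to 17 in WT, and globin sums were 85 to 152 in KO and 90 to 202 in WT. Their part in the collagen values was not tested.

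Ratios between the genes of a pair do not depend on the scaling of a library. The ratio of *Col1a1* to *Col3a1* was 0.411, 0.530 and 0.451 in KO and 0.441, 0.473 and 0.443 in WT, and its difference of 0.0120 gave p = 0.8 in a two-sided exact permutation test. The ratio of *Col4a1* to *Col4a2* was 1.20, 1.25 and 1.26 in KO and 1.28, 1.24 and 1.26 in WT, a difference of -0.0238 with p = 0.5 in the same exact test. With 3 against 3 hearts and 20 arrangements, the smallest p this test can give is 0.1. In both ratios the groups overlapped, and the lowest heart was KO replicate 1. The *Col4a1* to *Col4a2* ratio varied over 1.07-fold between the 6 hearts, while that of *Col4a4* to *Col4a3*, added after seeing the data, ran from 1.30 to 1.81. *Col4a1* and *Col4a2* had means of 1957 and 1567 normalised reads, *Col4a4* and *Col4a3* of 212 and 136. The part of counting noise, which is larger at low values, was not tested.

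The genes that make, cut, cross-link, break down and sense collagen formed a list of 65, of which 58 were tested. The adjusted test called 0 of them, and 5 had an unadjusted p under 0.05, 2 higher and 3 lower, beside the 5.74% of all tested genes. The fold change was above 0 in 31 and below 0 in 27 with a median of 0.02 on the log2 scale. Groups did not overlap in 3 of the 58, against 9.07% of all tested genes.

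Of the 17 tested genes of folding and modification, 8 were above 0 and 9 below. *P4ha1*, a subunit of the prolyl hydroxylase that stabilises the helix, had 285, 305 and 304 normalised reads in KO and 327, 324 and 458 in WT. Every KO heart was below every WT heart, with a log2 fold change of -0.29 and an unadjusted p of 0.0103 (adjusted p = 0.807, limma), and without WT replicate 3 the fold change was -0.13. *Serpinh1*, the collagen chaperone, had 404, 479 and 458 in KO and 496, 463 and 499 in WT, a log2 fold change of -0.12 with overlapping groups. Of the 12 tested genes of procollagen cleavage and cross-linking, 7 were above 0 and 5 below. *Loxl2*, a cross-linking oxidase, had 164, 206 and 223 in KO and 166, 168 and 170 in WT. Its KO replicate 1 was below every WT heart, as in *Col4a3*, and its log2 fold change was 0.22 with an unadjusted p of 0.0473 (adjusted p = 0.851, limma), or 0.13 without KO replicate 3 and 0.35 without KO replicate 1.

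Of the 10 tested genes of breakdown and its inhibitors, 3 had an unadjusted p under 0.05, against 5.74% of all tested genes, and 0 an adjusted one. *Mmp2*, a gelatinase that also cleaves type IV collagen, had 264, 323 and 310 normalised reads in KO and 257, 270 and 242 in WT, a log2 fold change of 0.22 with an unadjusted p of 0.0204. *Mrc2*, the receptor that takes up collagen fragments, had 169, 182 and 176 in KO and 191, 207 and 202 in WT, with no overlap, a log2 fold change of -0.19 and an unadjusted p of 0.0456. *Timp4*, an inhibitor of metalloproteinases, had 299, 238 and 147 in KO and 317, 269 and 278 in WT, a log2 fold change of -0.39 with an unadjusted p of 0.0235. It was -0.11 without KO replicate 3 and -0.62 without KO replicate 1. KO replicate 3 was the lowest *Timp4* heart, and KO replicate 1 lay within the WT range. *Mmp16*, a membrane-bound metalloproteinase, had 21, 22 and 21 in KO and 16, 15 and 15 in WT. Its groups did not overlap either, and its log2 fold change of 0.45 had a standard error of 0.25.

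The 9 tested receptors of collagen, which include integrin subunits and discoidin domain receptors, had 2 fold changes above 0 and 7 below, and 0 with an unadjusted p under 0.05, where the share of all tested genes is 5.74%. *Itgb1*, the shared beta chain of the collagen-binding integrins, had 1401, 1511 and 1540 normalised reads in KO and 1660, 1495 and 1475 in WT. Of the 10 signals of fibrosis, 8 were above 0 and 2 below, and 0 had an unadjusted p under 0.05, beside the same 5.74%. Counts of 0 among so few genes do not set either list apart from the rest. *Tgfb1*, the gene of a main inducer of fibrosis, had 68, 92 and 74 in KO and 75, 74 and 63 in WT, and *Ctgf* had 250, 273 and 298 in KO and 214, 268 and 245 in WT. In both genes the groups overlapped.

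**Figure D5:**
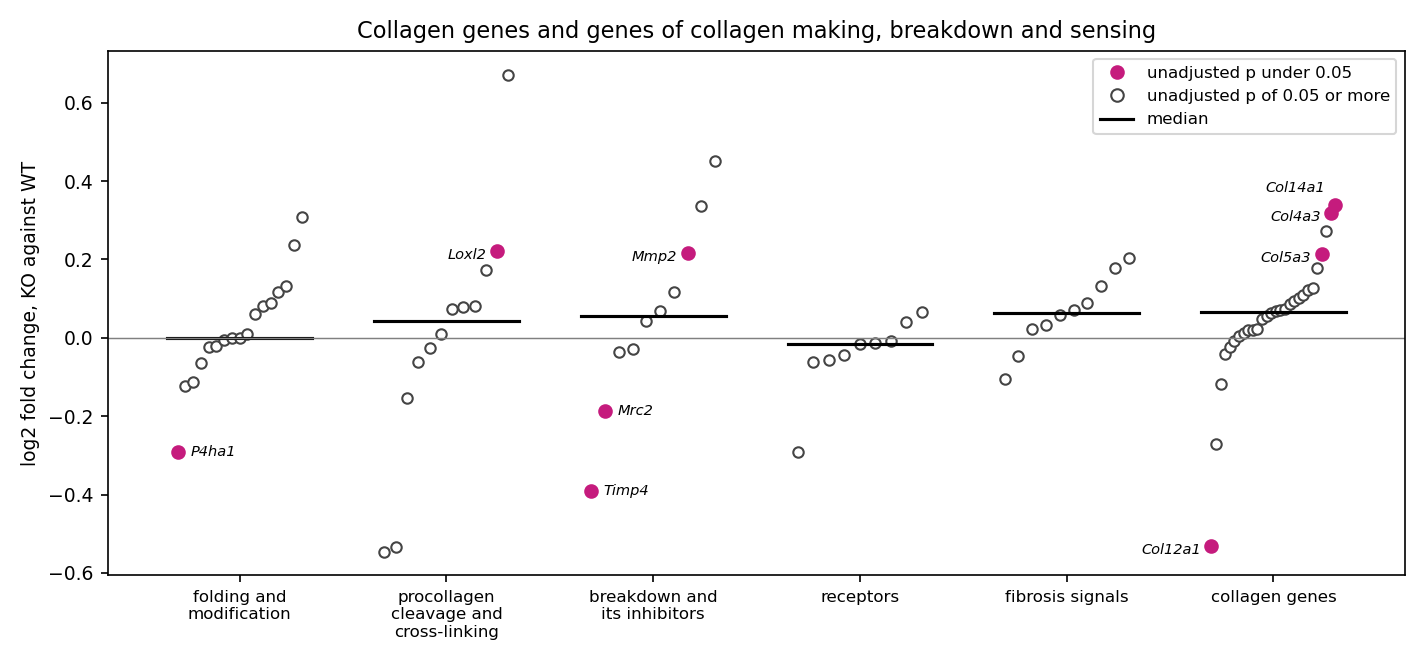
Log2 fold change of KO against WT for the 58 tested genes of the collagen pathway by class and for the 28 tested collagen genes, with the median of each class as a line and genes with an unadjusted p under 0.05 filled. The named genes lie on both sides of 0, and none of those shown passed the adjusted test.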

How the data were processed

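RNA of 3 KO and 3 WT mouse hearts was sequenced as strand-specific total RNA libraries with single-end reads. Per the labels and the study's methods, the authors trimmed reads with Trimmomatic 0.39, aligned them to GRCm38 with STAR 2.6.1d, removed duplicates with Picard 2.21.1 and counted reads in exons with featureCounts 1.6.5. In the deposited table each value is a score, namely a gene's read count in 1 library after the authors divided it by that library's DESeq2 1.18.1 size factor, written without decimals. The reads behind each library were not estimated here. The plan named limma for normalised values and a count test for raw ones, and the former applied. It holds no per-sample column beyond the 6 libraries.

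Values were transformed to log2(value + 1), and the 13753 genes with a mean of at least 10 were fitted with limma 3.58.1 in R 4.3.3 (lmFit and eBayes, trend on). Tests were two-sided, p-values were adjusted by Benjamini-Hochberg, and 0.05 was the threshold. The code was tested on simulated data. Fold changes of low genes are understated by the added 1. Ratios were compared by exact permutation. The members and lists were chosen with earlier results of these data known. All members with a mean of at least 10 are named with their values, untested members with their range, and pathway genes where the unadjusted p was under 0.05. *Serpinh1*, *Mmp16*, *Itgb1*, *Tgfb1* and *Ctgf* were named after their values were seen. Alternatives were limma-voom, limma without the trend, total and median-of-ratios scaling, other filters, a pseudocount of 0.1, a block for the replicate number and leaving out each library. Exons were those of GENCODE M21, in which 31 of the 39 genes have the coordinates of the table, and lengths and repeats were taken from it.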

Additional observations from a re-analysis of the deposited data

How the results depend on the processing

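Across the alternatives 0 collagen genes passed the adjusted test, except that 2 did without KO replicate 1 (0 to 2 over the 6 libraries left out in turn). The count over all genes was 4, 1 without the mean-variance trend, 2 with at least 10 in every sample and 2 to 32 with a library left out. Collagen genes at an unadjusted p under 0.05 were 4, 5 without the filter (with *Col25a1* added), 1 without the trend and 0 to 12 with a library left out, the lowest without KO replicate 3 and the highest without KO replicate 1. Over all genes these counts were 790, 780 without the trend, 507 without KO replicate 3 and 1135 without KO replicate 1. Pathway genes were 5, 3 without the trend and 1 to 9 with a library left out, and 0 after adjustment throughout. Of 390 fold changes of collagen genes under alternatives, 32 had the other sign, and 14 genes never did. *Col6a3* was 0.013 with limma-voom and 0.014 with total scaling, and *Col23a1* was 0.0047 with limma-voom. With a library left out, the range was -0.10 to 0.23 in *Col18a1*, -0.31 to 0.41 in *Col4a6*, -0.032 to 0.10 in *Col1a2*, -0.023 to 0.23 in *Col1a1*, -0.0064 to 0.18 in *Col5a1*, -0.10 to 0.13 in *Col5a2*, -0.26 to 0.035 in *Col27a1*, -0.31 to 0.41 in *Col11a2*, -0.19 to 0.094 in *Col6a3*, -0.073 to 0.11 in *Col8a1*, -0.20 to 0.12 in *Col16a1*, -0.18 to 0.19 in *Col23a1*, -0.59 to 0.037 in *Col20a1* and -0.13 to 0.21 in *Col13a1*. The difference in the *Col1a1* to *Col3a1* ratio ran from -0.0212 (without KO replicate 2, exact p = 0.6) to 0.0387, and that of *Col4a1* to *Col4a2* from -0.0367 to -0.00526. The cause of these shifts was not tested. The deviations of same-numbered libraries correlated at 0.05, -0.07 and -0.03. Whether libraries of the same number share a litter or a day of preparation was not tested. With a replicate block 4 genes were called over all genes and 0 collagen genes, whose smallest adjusted p was 0.645 (limma). Low values limit the 11 members under the filter, and *Col4a6*, *Col11a2*, *Col13a1* and *Col20a1*, at 9 to 29 normalised reads, had standard errors of 0.32 to 0.33.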
